A study of Mus musculus with 4 samples.

Results

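Semaphorins and plexins were followed in 4 RNA-seq libraries of mouse T cells, as a list of 10 genes of lymphocytes: the semaphorin genes Sema4a, Sema4b, Sema4c, Sema4d, Sema4f, Sema6b and Sema7a and the plexin genes Plxnb2, Plxnc1 and Plxnd1. They were found by mapping the Entrez identifiers of the tables to mouse symbols, and all 10 were present among 23480 identifiers, 29 of which were semaphorin or plexin genes. The members were chosen by name with their CPM and their change in an earlier comparison of these same 4 libraries in view, in which Sema4f stood near the top. The comparison between the groups therefore describes the 10 genes, its p-values are no independent evidence for them, and nothing is rested on how many of them moved.

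The Th9 group was 2 libraries of T cells kept under Th9 conditions, and the other group, written Th9+TLA1 in the sample labels, was 2 libraries of T cells kept under the same conditions with TLA1. The series title writes TL1A, a cytokine of the TNF superfamily, and the names are read here as the same protein. Th9 cells are a helper T cell type named for its main product, interleukin 9. The sources used here do not give mouse strain, age, culture time, dose or the starting T cell population. The labels also do not say whether replicates were separate cultures or animals, and p-values therefore measure only how far these libraries spread, which may be technical.

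Semaphorins are secreted or membrane-bound proteins that share a sema domain and were first known as guidance cues of growing axons. Plexins are their main receptors and act on small GTPases of the Ras and Rap families inside the cell, while neuropilins are co-receptors, chiefly for the secreted class 3 semaphorins. In the immune system the class 4 proteins and the lipid-anchored semaphorin 7A are known for contacts between T cells, B cells and antigen-presenting cells. Semaphorin 4D is CD100 of T cells, a ligand of plexin-B1 and of CD72 on B cells. Semaphorin 4F is a membrane-bound class 4 protein studied mostly in the nervous system.

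The libraries held 2979482 to 4041633 reads counted in genes, and 3 reads corresponded to 0.742 to 1.01 CPM (reads scaled to a fixed total per library), a limit that covers counting error only. All 8 T cell markers (Cd3e, Cd3d, Cd3g, Cd2, Thy1, Lck, Cd247 and Cd4) were tested, and their summed level was 2701 and 3084 CPM without TL1A, against 3482 and 3349 CPM with it. Il9 lay between 1445 and 2879 CPM in all 4 libraries. Markers of macrophages and monocytes summed to 0.316 to 2.47 CPM and those of NK cells to 1.01 to 3.22 CPM, and no read of an erythroid marker was counted. Markers of CD8 T cells summed to 7.92 to 13.3 CPM, most of it Cd8b1, and those of mast cells to 0 to 5.05 CPM, all of it Kit.

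Sema4f is shown first by the sequence before its start, because it is the member on which the results turn. It is Entrez gene 20355, on the minus strand of chromosome 6 from 82911884 to 82939769 of GRCm38.p6, the assembly called mm10, and no annotated coding, antisense or long non-coding gene of GENCODE M21 overlaps it. RefSeq lists 1 start for it. The 250 bases before that start, chr6:82939770-82940019, are printed 5′ to 3′ on the gene's strand, with capitals marking the letters ATTGG, the reverse strand of CCAAT, which is bound by the factor NF-Y in many promoters.
Sema4f: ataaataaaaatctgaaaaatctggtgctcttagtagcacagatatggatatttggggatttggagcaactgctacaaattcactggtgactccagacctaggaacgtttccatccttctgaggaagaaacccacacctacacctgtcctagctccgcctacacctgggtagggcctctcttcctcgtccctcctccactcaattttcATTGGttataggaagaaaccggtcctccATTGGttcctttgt
The 2 matches began 42 and 14 bases before the start. CCAAT on either strand is in 33.8% of the 32536 distinct RefSeq windows of this length. The letters TGANTCA, the AP-1 site that BATF proteins of the series title can also bind, read the same on both strands and gave 0 matches in this window, against 6.73% of all windows with a match. Among the other members, CCAAT on either strand was found in 1 of 4 windows of Sema4a, 2 of 3 of Sema4d and 1 of 2 of Sema6b. TGANTCA was found in 1 of 2 windows of Sema4c, 1 of 3 of Sema4d and 1 of 2 of Sema6b. These are matches of letters only, and no binding was measured.

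With TL1A, Sema4f rose 9.92-fold, from a level below that of Sema4a to the second most abundant semaphorin, and no other listed gene passed the test. Sema4f had 25.2 and 34.7 CPM (102 and 110 reads) without TL1A, against 249 and 325 CPM (743 and 1000 reads) with it. The TL1A libraries were both far above the Th9 libraries, and the gap was wider than the spread within either group. The means were 30.0 ± 6.71 and 287 ± 53.2 CPM (SD, n = 2 per group). On the log2(CPM + 1) scale used for all fold changes, the difference was 3.31 ± 0.25 (SE; 95% interval 2.77 to 3.85; limma, adjusted p = 9.88e-05 over 10324 tested genes). Sema4f ranked 10 by log2 fold change and 2 by p among those genes, and no gene of its mean level or above had a higher log2 fold change. In bulk RNA, more cells with the transcript and more transcript per cell cannot be told apart.

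**Figure D1:**
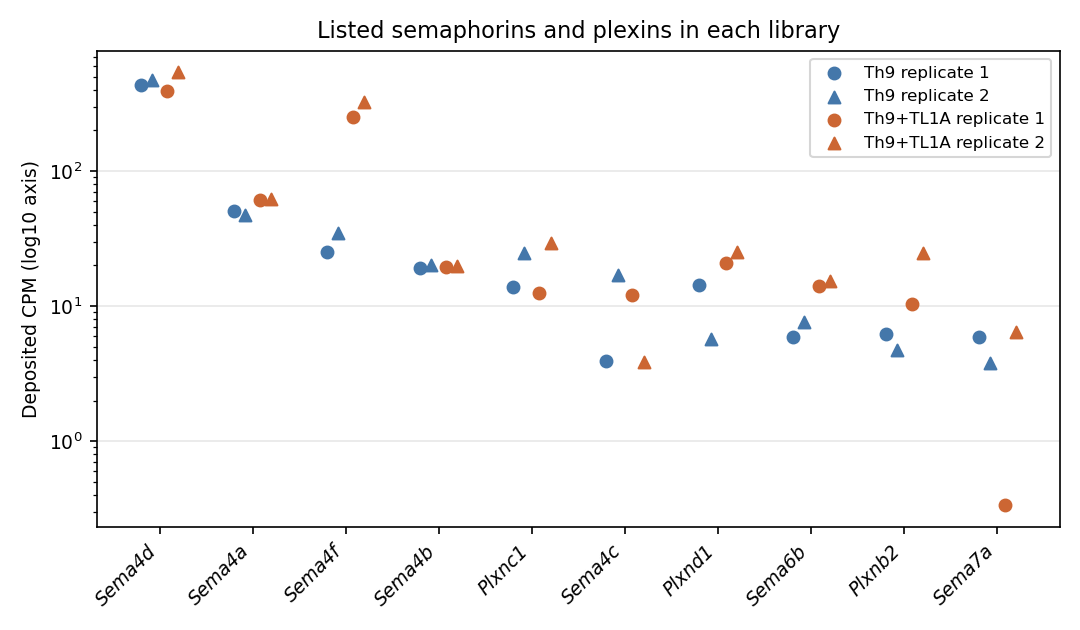
Deposited CPM of the 10 listed genes in each library on a log10 axis, ordered by mean Th9 level, with blue for Th9, orange for Th9+TL1A, circles for replicate 1 and triangles for replicate 2. Sema4f goes from 25.2 and 34.7 to 249 and 325 CPM, Sema4d stays between 393 and 537 CPM, and the lowest orange circle is the 1 read of Sema7a in Th9+TL1A replicate 1.

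The members were then compared with each other per kilobase of exon, since longer transcripts give more reads. Sema4d led in the Th9 libraries with a mean of 58.6 CPM per kilobase, followed by Sema4a (9.07) and Sema4f (5.67), and the values of these 3 genes did not overlap between libraries. Sema4b came next at 3.48, and the other 6 genes lay between 0.707 and 2.32 CPM per kilobase, where the values of neighbours overlapped. With TL1A, Sema4f moved to the second place with 54.2 CPM per kilobase beside 60.6 for Sema4d, and these neighbours overlapped (47.1 and 61.4 against 51.2 and 69.9). Per kilobase, Sema4d exceeded Sema4f 11.8-fold and 9.31-fold in the Th9 libraries, against 1.09-fold and 1.14-fold in the TL1A libraries. Sema4a came after them at 11.4 CPM per kilobase, and the other 7 genes lay between 1.03 and 3.70.

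Within class 4 the added reads were mostly those of Sema4f. Sema4f made up 4.76% and 5.90% of the summed CPM of the 6 class 4 genes in the Th9 libraries, against 33.9% and 34.2% in the TL1A libraries. The other class 4 genes together gave 505 and 554 CPM without and 486 and 623 CPM with TL1A, so their sums overlapped between the groups. These shares are descriptive and follow from the rise of Sema4f given above.

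**Figure D2:**
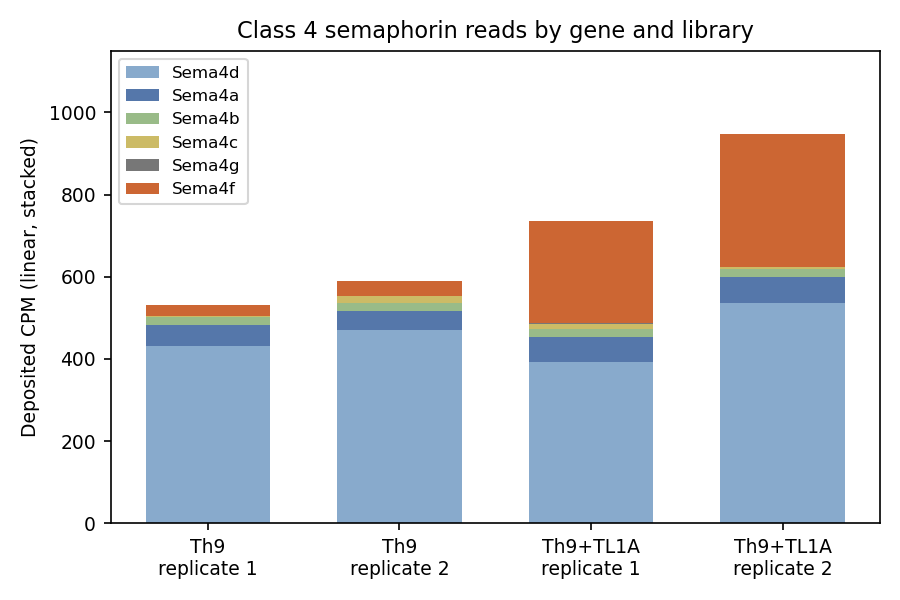
Stacked CPM of the 6 class 4 semaphorin genes in each library on a linear axis starting at 0, with Sema4f in orange on top. The stack below Sema4f is 505 and 554 CPM without TL1A, against 486 and 623 CPM with it, and the Sema4f share grows from 4.76% and 5.90% to 33.9% and 34.2%.

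Of the 10 listed genes, 1 was called higher and 0 lower at an adjusted p under 0.05, where 0.891% of all tested genes were called higher, 0.252% lower and 1.14% in either direction. All 10 passed the filter on low counts. The median log2 fold change of the 10 was 0.27, and that of the 9 genes without Sema4f 0.12, beside -0.013 over all tested genes. None of those 9 was called by limma, edgeR's quasi-likelihood test, limma voom or DESeq2, and 3 of them, Plxnb2, Plxnd1 and Sema6b, had an unadjusted limma p under 0.05, as did 16.7% of all tested genes. Sema4f was thus the only member past the threshold, but the intervals of several others are too wide to show that they stayed the same.

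The other class 4 ligands differed in how tightly they could be measured. Sema4d had 431 and 469 CPM without TL1A, against 393 and 537 CPM with it, with the Th9 values inside the TL1A range. Its log2 fold change was 0.12 ± 0.19 (SE), with a 95% interval from -0.30 to 0.54. Sema4a, whose protein binds Tim-2 and plexins and is known from dendritic cells and T cells, had 50.7 and 47.4 CPM without and 60.7 and 62.3 CPM with TL1A. Both TL1A values of Sema4a were higher than both Th9 values, and the interval of its log2 fold change of 0.41 ran from -0.13 to 0.96 (limma, adjusted p = 0.441). Sema4b was the steadiest member, with 19.1 and 20.2 CPM in the Th9 libraries, against 19.5 and 19.8 CPM in the TL1A libraries. Its values overlapped, and on 58 to 77 reads per library its interval still ran from -0.74 to 0.92. Sema4c, a ligand of plexin-B2, had 3.96 and 17.0 CPM without and 12.1 and 3.89 CPM with TL1A, so replicates differed more than groups did. The interval of Sema4c, -1.75 to 1.42, allows a change of either sign. The locus of Sema4c overlaps the gene D430040D24Rik, and the library kit does not mark strand.

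Sema6b and Sema7a were the members outside class 4 on the ligand side, both at low levels. Sema6b, a membrane-bound class 6 semaphorin, had 5.94 and 7.58 CPM in the Th9 libraries, against 14.1 and 15.3 CPM in the TL1A libraries, or 24, 24, 42 and 47 reads. The groups of Sema6b did not overlap, but its log2 fold change of 1.10 ± 0.49 (SE; 95% interval 0.027 to 2.18) missed the threshold (adjusted p = 0.288, limma). Sema7a, whose protein binds integrin β1 and plexin-C1, had 5.94 and 3.79 CPM without TL1A. With TL1A it had 0.336 CPM (1 read) in replicate 1 and 6.49 CPM (20 reads) in replicate 2. The groups of Sema7a overlapped, and its log2 fold change of -0.80 ± 0.86 rested on Th9+TLA1 replicate 1: without that library it was 0.45 (limma, adjusted p = 0.925).

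Among the receptors, Plxnb2 and Plxnd1 had higher values in the TL1A libraries, and Plxnc1 did not separate the groups. Plxnb2, which encodes the receptor of semaphorin 4C, had 6.19 and 4.74 CPM in the Th9 libraries, against 10.4 and 24.7 CPM in the TL1A libraries. The TL1A values of Plxnb2 were both higher but lay far apart, and the log2 fold change of 1.50 ± 0.55 (SE; 95% interval 0.29 to 2.70) did not pass (limma, adjusted p = 0.210). Plxnd1, which encodes a receptor of semaphorin 3E known from thymocyte migration, had 14.4 and 5.68 CPM without and 20.8 and 25.3 CPM with TL1A. Its groups did not overlap either, and its log2 fold change of 1.33 ± 0.49 (95% interval 0.27 to 2.39) did not pass (limma, adjusted p = 0.209). Plxnc1, which encodes the plexin that binds semaphorin 7A, had 13.9 and 24.9 CPM without and 12.4 and 29.2 CPM with TL1A. The Th9 values of Plxnc1 lay inside the TL1A range, and its log2 fold change was 0.12 ± 0.49.

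In all, 5 of the 10 members had groups of CPM that did not overlap, all 5 higher with TL1A, where 19.1% of all tested genes were higher in this way, 29% lower and 48.1% in either direction. The 5 were Sema4a, Sema4f, Sema6b, Plxnb2 and Plxnd1. The ratio of Sema4f to another member within a library was higher in both TL1A libraries than in both Th9 libraries for 9 of 9 members. That ratio changed by 1.81 on the log2 scale against Plxnb2, the smallest change, and by 4.09 against Sema7a, the largest. The 9 ratios all carry the same rise of Sema4f, so they mostly restate it and are no further evidence. The difference between the fold changes of members was not tested. The upper 95% bounds of the other 9 members, of which that of Plxnb2 was the highest at 2.70, all lay below the lower bound of Sema4f at 2.77. The order of these bounds is descriptive, since Sema4f was listed with its change in these libraries known. It does not test whether the members differed.

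**Figure D3:**
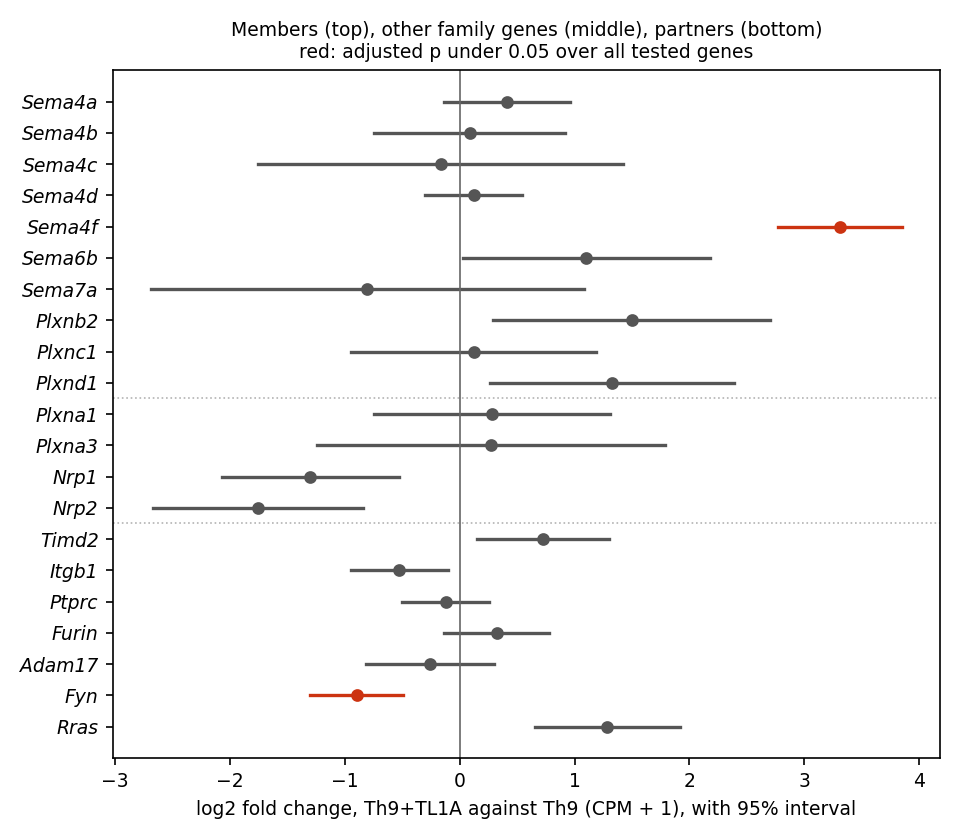
Log2 fold change of Th9+TL1A against Th9 with its 95% interval from limma for the 10 listed genes (top), the other tested plexin and neuropilin genes (middle) and named partners (bottom), in red where the adjusted p was under 0.05. Sema4f at 3.31 stands alone on the right, and Nrp1 and Nrp2 lie at -1.30 and -1.76 with grey intervals below 0.

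Sema4f kept its call in all 15 alternatives, including each of the 4 in which a library was left out, where its log2 fold change lay between 3.04 and 3.59 and its highest adjusted p was 0.0363 (limma, without Th9 replicate 2). No other listed gene was called in any of them. Leaving out a library turned the sign of Sema4c, Sema4d, Sema7a and Plxnc1, so no direction is given for these genes. Plxnb2 lay between 0.92 and 2.08 on the log2 scale and Plxnd1 between 0.78 and 1.88 over the alternatives.

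**Figure D4:**
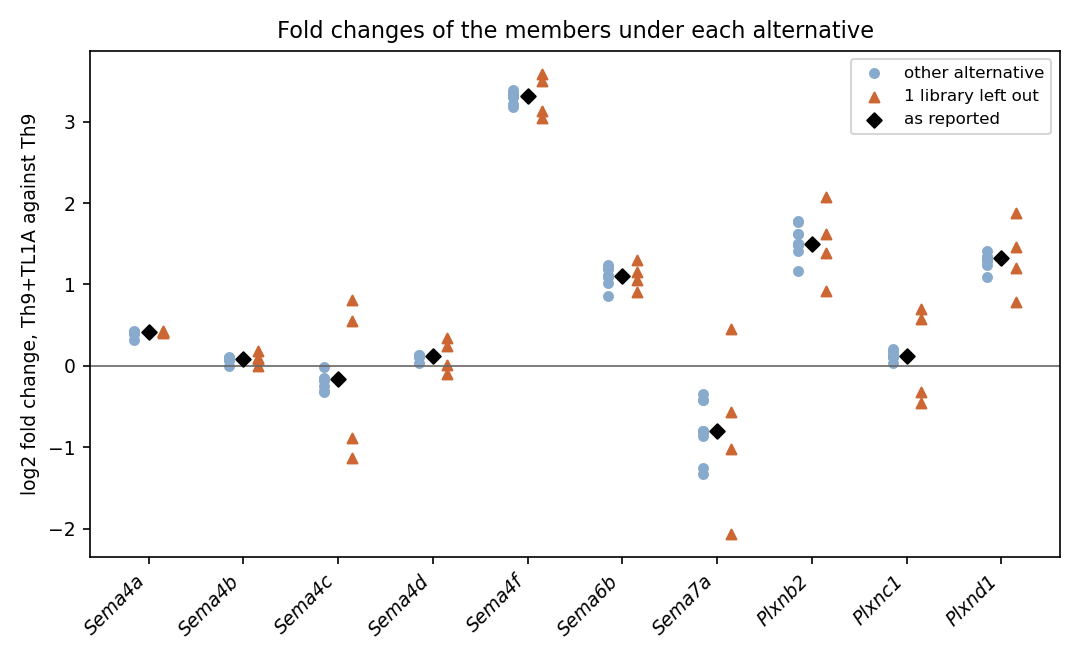
Log2 fold change of each listed gene as reported (black diamonds), with 1 library left out (orange triangles) and under the other alternatives (blue circles). Sema4f stays between 3.04 and 3.59, while the orange triangles of Sema4c, Sema4d, Sema7a and Plxnc1 fall on both sides of 0.

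The rest of the semaphorin family was nearly silent. Of 13 other semaphorin genes, 8 had 0 reads in every library and none passed the filter. Sema6c was the 1 gene among them with at least 3 reads in a library (9, 3, 9 and 5 reads), and its groups overlapped. The secreted class 3 genes were all under 3 reads in every library, so no change in them was detectable at this depth.

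Of 6 other plexin and 2 neuropilin genes, Plxna1, Plxna3, Nrp1 and Nrp2 could be tested, and both neuropilins had lower values with TL1A. Nrp2 had 28.5 and 33.5 CPM in the Th9 libraries, against 7.38 and 8.44 CPM in the TL1A libraries, or 115, 106, 22 and 26 reads. The groups of Nrp2 stood well apart, and its log2 fold change was -1.76 ± 0.42 (SE; limma, adjusted p = 0.0754). Its locus overlaps the gene model Gm29083, and the library kit does not mark strand. Nrp1, also known as a surface marker of thymus-derived regulatory T cells, had 82.6 and 63.8 CPM without and 18.5 and 39.6 CPM with TL1A. Its groups did not overlap, and its log2 fold change was -1.30 ± 0.35 (limma, adjusted p = 0.113). Limma, edgeR's quasi-likelihood test and limma voom called 0 of these 4 genes. DESeq2, which called 273 of the 10324 tested genes, called Nrp2 (adjusted p = 0.0250). Both neuropilins had an unadjusted limma p under 0.05, as did 16.7% of all tested genes. The change of Nrp1 depended on the library left out: without Th9+TLA1 replicate 2 its log2 fold change was -1.82 and it was called lower (limma, adjusted p = 0.0288), and without Th9+TLA1 replicate 1 it was -0.78 (adjusted p = 0.40).

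Plxna1, a receptor of class 3 and class 6 semaphorins, had 9.90 and 19.3 CPM without and 14.4 and 17.9 CPM with TL1A, with overlapping groups. Plxna3 had 2.23 and 8.21 CPM without and 5.03 and 5.52 CPM with TL1A, also overlapping. The sign of the change of both turned without Th9 replicate 1. The locus of Plxna1 overlaps the gene model Gm26811 and that of Plxnb1 the gene model Gm7628, and the library kit does not mark strand. Plxnb1, the receptor of semaphorin 4D in other tissues, had 10, 3, 11 and 0 reads, and Plxnb3 3, 0, 0 and 6 reads. The remaining plexins, Plxna2 and Plxna4, had 0 reads in all 4 libraries.

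**Figure D5:**
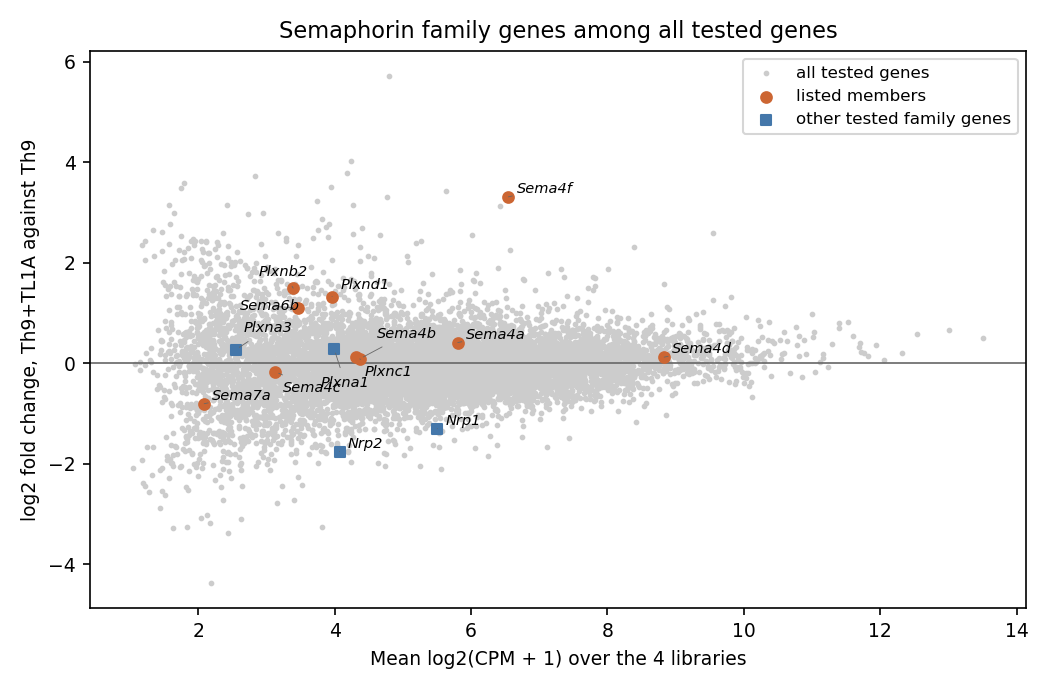
Log2 fold change against mean log2(CPM + 1) over the 4 libraries for all 10324 tested genes (grey), the 10 listed genes (orange circles) and the other tested family genes (blue squares). Sema4f at 3.31 has the highest fold change among the 2648 genes at its mean level or above, Sema4d lies at 0.12 on the right, and Nrp1 and Nrp2 lie at -1.30 and -1.76.

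Partners outside the plexin and neuropilin families were taken from lists of receptors, proteases and intracellular signalling genes. Of 11 other receptors and surface partners, 4 were tested and limma called 0, as did edgeR, DESeq2 and limma voom. An unadjusted limma p under 0.05 was found for 2 of the 4, beside 16.7% of all tested genes. Timd2, the gene of the Sema4A receptor Tim-2, had 41.6 and 36.0 CPM without and 58.4 and 63.0 CPM with TL1A, and its groups did not overlap (log2 fold change 0.73 ± 0.26 SE, adjusted p = 0.206 by limma). Itgb1, the gene of the integrin β1 chain that binds semaphorin 7A, had 310.0 and 225 CPM without and 166 and 178 CPM with TL1A (log2 fold change -0.52 ± 0.19, limma, adjusted p = 0.210). Ptprc, the gene of CD45 and the most abundant of the list by CPM, had 1176 and 956 CPM without and 917 and 912 CPM with TL1A.

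Of 4 proteases that cleave semaphorins or their precursors, 3 were tested, and limma called 0 (0 at an unadjusted p under 0.05), as did edgeR, DESeq2 and limma voom. Furin, a proprotein convertase, was by a small margin the most abundant of the list by mean CPM over the 4 libraries. Furin had 219 and 254 CPM without and 325 and 236 CPM with TL1A, with overlapping groups. Adam10, named here for comparison, had 287 and 263 CPM without and 263 and 218 CPM with TL1A. Per kilobase of exon Adam10 was higher, with means of 55.9 and 49.0 CPM against 25.8 and 30.5 for Furin (without and with TL1A). Adam17, a sheddase of surface proteins, had a log2 fold change of -0.26 ± 0.26 (SE), whose sign turned without Th9+TLA1 replicate 1. The locus of Furin overlaps the gene model Gm44851 and that of Adam17 the gene Iah1, and the library kit does not mark strand.

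Of 39 intracellular genes of plexin and semaphorin signalling, 33 were tested, and limma called 0 higher and 1 lower, beside 0.252% of all tested genes called lower. Their median log2 fold change was 0.097, against -0.013 over all tested genes. The called gene was Fyn, a Src family kinase of T cell receptor signalling that also acts downstream of plexin-A receptors. The locus of Fyn overlaps the gene models Gm16364 and Gm16365. Fyn fell from 302 and 249 to 131 and 145 CPM, and the groups did not overlap (log2 fold change -0.90 ± 0.19 SE, adjusted p = 0.0413 by limma). This call was lost whichever library was left out, with an adjusted p of 0.217 without Th9 replicate 1, 0.131 without Th9 replicate 2, 0.141 without Th9+TLA1 replicate 1 and 0.109 without Th9+TLA1 replicate 2, and with edgeR's quasi-likelihood test (0.0509). Rras, named after its values were seen, encodes a Ras-like GTPase on which plexins act as GTPase-activating proteins. Rras had 26.2 and 36.0 CPM without and 67.8 and 75.9 CPM with TL1A, and its log2 fold change of 1.29 ± 0.29 missed the threshold (limma, adjusted p = 0.0575).

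The genes whose profile over the 4 libraries was most like that of Sema4f were Ermn, Pcsk1, Ly6a, Impg2 and Itga3, at Euclidean distances of 0.451 to 0.706 between centred log2(CPM + 1) values. The nearest listed member, Plxnb2, was at 1.98. With 4 libraries in 2 groups, this likeness mostly restates a large rise with TL1A. Ermn, the gene of the cytoskeletal protein ermin, had 13.6 and 15.8 CPM without and 168 and 147 CPM with TL1A. Ly6a, the gene of Sca-1, had 21.8 and 38.5 CPM without and 277 and 217 CPM with TL1A. Itga3, an integrin α chain gene, had 3.46 and 5.37 CPM without and 41.6 and 31.2 CPM with TL1A. Pcsk1, a proprotein convertase gene, went from 0 reads in either Th9 library to 10.4 and 11.0 CPM with TL1A. With each Th9 library put at 3 reads, the mean was 12.7-fold higher with TL1A, or 11.3-fold against the higher of these Th9 levels. Ermn and Ly6a were called in all 15 alternatives. Itga3 lost its call with no filter (limma, adjusted p = 0.0707). It also lost it without Th9 replicate 1 (log2 fold change 2.58) or Th9 replicate 2 (3.18). Pcsk1 lost its call with total count scaling (limma, adjusted p = 0.0646), a pseudocount of 0.25 (0.0711) or no filter (0.0509). The same held whichever of the 4 libraries was left out, at log2 fold changes of 3.56 to 3.64. Pcsk1 and Impg2 passed the filter only through the TL1A libraries, so their place among the tested genes favours higher values with TL1A. Impg2 had 0, 1, 14 and 28 reads and was not called (limma, adjusted p = 0.127).

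Markers of other cells that carry semaphorins were set beside these results. The 4 B cell markers used (Cd79a, Cd79b, Ms4a1 and Pax5) summed to 10.4 and 12.9 CPM in the Th9 libraries, against 27.5 and 29.2 CPM in the TL1A libraries, most of it Cd79b (6.19, 12.9, 24.2 and 28.6 CPM). Cd79a had 4.21 and 0 CPM without and 3.36 and 0.649 CPM with TL1A, with overlapping groups. Ms4a1 and Pax5 had 0 reads in every library. The 6 dendritic cell markers summed to 5.69 and 3.16 CPM without and 15.4 and 8.76 CPM with TL1A, most of it Zbtb46, while Siglech and Clec9a had 0 reads. The locus of Zbtb46 overlaps the genes Abhd16b, Lime1 and Zgpat, and the library kit does not mark strand. The part of such cells in the values of the listed genes, Sema4f among them, was not tested.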

How the data were processed

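RNA of 4 libraries of mouse T cells was measured by RNA-seq. Per the labels' protocols, cDNA was made with a SMARTer Ultra Low Input kit, which does not mark strand, and sequenced on an Ion Torrent instrument. Per the submitters' processing notes, HTSeq 0.5.4, edgeR and build mm10 were used. The sources used here give no aligner or annotation. The authors deposited 1 table of CPM per library. All non-zero values (100%) were whole multiples of 1 read within 0.01 of a read, and the recovered reads came to 4041633, 3167270, 2979482 and 3081187. Amplified reads are not independent molecules.

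Symbols were taken from the RefSeq genes of GRCm38.p6 (23383 of 23480 identifiers matched), exon lengths and overlaps from GENCODE M21, and the promoter sequence from RefSeq; the annotation behind the deposited counts may differ. Genes were filtered with filterByExpr on recovered reads (minimum count 10), CPM were divided by TMM factors (0.964 to 1.06), and log2(CPM + 1) was fitted with limma (eBayes with a mean trend, group alone), with Benjamini-Hochberg adjustment over 10324 genes and a threshold of 0.05. Printed CPM are the deposited ones. Fold changes with a pseudocount of 1 CPM understate the change of low genes. EdgeR, DESeq2 and limma voom on the recovered reads, which called 110, 273 and 130 genes against 118 by limma, other scalings, filters and pseudocounts, the replicate number as a block and each library left out were alternatives. With a library left out, the filter was applied to the remaining 3, and the lone library of a group was assumed to vary like the other group.

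The members and gene lists were chosen with earlier results of these data known. A further B cell marker is not reported here. Named were the 10 members; other family genes that passed the filter or had at least 3 reads in a library; in each other list the called genes or, with none, the most abundant tested gene and the 2 with the largest absolute change; and the 5 genes with profiles nearest to Sema4f, skipping predicted models. On simulated counts for this comparison (5 runs, 10324 genes, 200 changed in each), limma recovered 34.2% of the 2-fold changes and 71.2% of the 4-fold changes, and made 7.6 false calls per run. The chi-square per degree of freedom between replicates was 12.2 for Th9 and 7.54 for TL1A, so neither pair was a copied library. Tools were DESeq2 1.42.0, edgeR 4.0.16 and limma 3.58.1 in R 4.3.3, and pandas 2.3.3 with matplotlib 3.10.9 in Python 3.11.15.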

Additional observations from a re-analysis of the deposited data

How the results depend on the processing

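The call of Sema4f, the count of 1 called listed gene and the count of 0 called genes among other guidance cues held in all 15 alternatives, and the rise of the Sema4f share of class 4 reads (28.7 percentage points) lay between 28.2 and 29.3 with a library left out. The log2 fold change of Sema4f was 3.18 to 3.39 over the 11 alternatives that kept all libraries. Of the other plexins, neuropilins and semaphorins, 0 were called, but 1 with DESeq2 (Nrp2), 2 with the replicate block (Nrp1 and Nrp2) and 0 to 1 with a library left out. Of the partners and signalling genes, 1 was called (Fyn). The count was 2 (Fyn and Rras) with upper quartile scaling, the stricter filter (mean CPM of at least 10), DESeq2, limma voom or the replicate block. It was 0 with a pseudocount of 0.25, no filter or edgeR's quasi-likelihood test. With a library left out, Fyn lost its call each time, and Rras was called without Th9+TLA1 replicate 1 (log2 fold change 1.36). The cause was not tested. Without 1 library the log2 fold change ran from -1.13 to 0.81 for Sema4c, -0.094 to 0.34 for Sema4d, -2.06 to 0.45 for Sema7a, -0.46 to 0.70 for Plxnc1, -0.21 to 0.78 for Plxna1, -0.52 to 1.07 for Plxna3, -0.60 to 0.086 for Adam17 and -1.63 to 0.037 for Ephb6, each crossing 0. Same-numbered libraries did not deviate together (correlation -0.011 over 10324 genes), so the numbers are not read as pairs; the block raised the count over all genes from 118 to 225. Over all genes the count was 73 with total count scaling, 33 without a filter, 273 with DESeq2, 42 without Th9 replicate 1 and 19 without Th9 replicate 2.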

Other observations

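Other families of guidance cues were sparse in these cells. Of 35 ephrin, Eph receptor, Slit, Robo, netrin, Dcc, neogenin and Unc5 genes, 15 had 0 reads in every library and 3 passed the filter. Limma, edgeR, DESeq2 and limma voom called 0 of these 3. An unadjusted limma p under 0.05 was found for 1, Epha2, beside 16.7% of all tested genes. Epha2, a receptor of A-type ephrins, had 1 and 4 reads without TL1A, against 32 and 17 reads with it. Its log2 fold change was 2.43 ± 0.75 (SE, limma, adjusted p = 0.146). The groups of CPM of Epha2 did not overlap, as was so for 48.1% of all tested genes. Epha2 passed the filter only through the TL1A libraries, so its place among the tested genes favours a higher value with TL1A. Efna5, an ephrin gene, had 42.6 and 38.8 CPM without and 25.8 and 24.7 CPM with TL1A, lower in both libraries (log2 fold change -0.58 ± 0.31, limma, adjusted p = 0.381). Ephb6, a kinase-inactive Eph receptor gene of T cells, had 10.9 and 5.37 CPM without and 1.68 and 7.46 CPM with TL1A, with overlapping groups.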
